A study of Mus musculus with 8 samples.

Results

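The genes described here are 10 genes of MHC class I antigen presentation in mouse embryonic fibroblasts: H2-K1, H2-D1, H2-T23, B2m, Tap1, Tap2, Tapbp, Psmb8, Psmb9 and Nlrc5. They were taken by their symbols from the authors' deposited tables, where each symbol has a single row, and make up 10 of 50600 genes listed and 10 of 34250 genes with a mean count above 0. All 10 carried an adjusted p in each of the 3 tables, so none was lost to a filter on low counts. RNA sequencing was done on 8 libraries of C57BL/6 embryonic fibroblasts that all received GHMT retroviruses, which encode the heart transcription factors Gata4, Hand2, Mef2c and Tbx5 and are used to turn fibroblasts toward heart muscle. Over 7 days in StemPro-34 SFM the cells were given 1% DMSO, a solvent, 5 µM I-CBP112, an inhibitor of the acetyl-lysine binding bromodomains of CBP and p300, 5 µM C646, an inhibitor of the catalytic site of the same acetyltransferases, or 0.1% ethanol, with 2 libraries for each agent. The solvent of the inhibitors and any sort for transduced cells are not given in the sources used here. Every group carries the retroviruses, so none shows untransduced fibroblasts.

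Class I molecules carry peptides from inside the cell to its surface, where CD8+ T cells read them. A polymorphic heavy chain pairs with the light chain beta-2 microglobulin in the endoplasmic reticulum and is held open by tapasin next to the TAP transporter, which brings in peptides cut by the proteasome. Interferon exchanges catalytic proteasome subunits for inducible ones and raises the whole pathway, partly through NLRC5, a NOD-like receptor protein that acts in the nucleus on the shared promoter elements of class I genes.

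Of the 10 genes, 8 lie in the MHC region of chromosome 17 in GENCODE M21 on GRCm38. Those are Tapbp (chr17:33915899-33929292, plus strand), H2-K1 (chr17:33996017-34000347, minus strand), Psmb9 (chr17:34181987-34187764, minus strand), Tap1 (chr17:34187553-34197225, plus strand), Psmb8 (chr17:34197721-34201454, plus strand), Tap2 (chr17:34203527-34216321, plus strand), H2-D1 (chr17:35262730-35267499, plus strand) and H2-T23 (chr17:36029773-36032855, minus strand). B2m lies at chr2:122147686-122153083 on the plus strand and Nlrc5 at chr8:94434356-94527272 on the plus strand.

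RefSeq start-site windows on GRCm38.p6, from 250 bases before to 50 bases after the start, matched 8 of the 10 genes, those other than Tap2 and Nlrc5. The classical heavy chain and light chain promoters are shown because they hold the element types through which NF-κB, interferon regulatory factors and the NLRC5 enhanceosome are known to act on class I genes. Capitals mark matches on either strand to GGNNTTNCC (NF-κB) and GAANNGAAA (a core form of the interferon-stimulated response element). They also mark TGACG (the core of the X2 box) and CCAAT (the Y box), and no match overlaps another. The stretch of H2-K1 runs from position -136 to -2 relative to the start, at chr17:34000349-34000483, minus strand, and that of B2m from -136 to -39, at chr2:122147551-122147648, plus strand, neither of which overlaps an annotated exon.
H2-K1: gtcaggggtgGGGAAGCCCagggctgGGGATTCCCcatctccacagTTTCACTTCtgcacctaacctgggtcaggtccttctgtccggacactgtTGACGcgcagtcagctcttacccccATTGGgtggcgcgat
B2m: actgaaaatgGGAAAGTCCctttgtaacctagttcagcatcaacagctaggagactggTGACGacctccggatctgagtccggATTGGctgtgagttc
Of the capitals, the NF-κB, X2 and Y letters stand in the same order in both stretches, with NF-κB farthest from the start. GAANNGAAA is matched in the H2-K1 stretch, between its NF-κB and X2 letters. The B2m window also holds gaaactgaaa, which that pattern does not match. Those letters lie farther from the start than the B2m NF-κB motif, and the printed stretch begins inside them.

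The same NF-κB and response element block stands in H2-D1, and both copies are given here because this stretch is nearly the same in the pair of classical heavy chain genes. The block is at chr17:34000429-34000457, minus strand, for H2-K1 and at chr17:35262924-35262952, plus strand, for H2-D1, where it lies in an exon of an annotated H2-D1 transcript.
H2-K1 block: GGGATTCCCcatctccacagTTTCACTTC
H2-D1 block: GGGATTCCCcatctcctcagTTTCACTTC
They share 28 of 29 bases and differ by A17T, with the H2-K1 base first and positions counted from 1 at the 5′ end. Over the 8 matched windows, GGNNTTNCC was found in 3 (B2m, H2-D1, H2-K1) and in 16.0% of 32817 mouse windows of that length. GAANNGAAA was found in 2 (H2-D1, H2-K1) and in 7.52% of all. These counts leave out response elements of other spacing, such as the letters in the B2m window. The X2 letters TGACG were found in 5 (B2m, H2-D1, H2-K1, Psmb9, Tap1) and in 20.8% of all, and CCAAT in 7 (those 5, H2-T23 and Tapbp) and in 37.4% of all. The Psmb9 and Tap1 windows overlap on opposite strands, and their TGACG and CCAAT matches are the same bases, counted for both genes. TTCNNNGAA, the letters of a gamma-activated site, were found in Psmb8 alone of the 8 and in 8.29% of all. A match is a run of letters and no measured binding.

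The deposited tables give a mean normalized count over all 8 libraries and, for each treatment, a log2 fold change with its standard error (SE), and no values for single libraries. Levels per group were therefore rebuilt from the mean and the 3 fold changes, and the spread between libraries is seen only through the SE, which is 0.078 to 0.211 on the log2 scale for a rebuilt group mean of a member. The 3 treatments share the ethanol libraries as their reference, which the tables do not name and which was read as ethanol from the signs of genes with hardly any reads. An adjusted p under 0.05 was taken as past the test. The p-values rest on a single dispersion per gene over the 8 libraries. There are 2 libraries a group, which the labels do not describe as separate cultures.

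Mean normalized counts summed to 38000000 over all genes, and the members ranged from 240.0 (Psmb9) to 41080 (B2m), so each was well covered. The fibroblast label was matched by its markers, whose rebuilt counts summed to 656348 in DMSO, 626128 with I-CBP112, 1007188 with C646 and 1023599 in ethanol. Heart muscle markers summed to 331113 in DMSO, 332977 with I-CBP112, 120441 with C646 and 118230 in ethanol. Of 10 genes in each of these lists, the authors' deposited tables (DESeq2) had 8 fibroblast markers lower and 8 heart muscle markers higher in DMSO, 6 lower and 10 higher in I-CBP112, and none past the test in C646, where no marker of either list was under an unadjusted p of 0.05. Of all tested genes 7.90% were lower and 8.07% higher in DMSO, and 5.25% lower and 4.65% higher in I-CBP112. The leukocyte and macrophage list summed to 3800 in DMSO, 3122 with I-CBP112, 3567 with C646 and 3789 in ethanol, with none of 10 tested markers past the test in DMSO, also at an unadjusted p under 0.05, and 2 lower in I-CBP112 (Adgre1 and Csf1r). Nkg7 of that list was listed at 0. The MHC class II list summed to 182 in DMSO, 240 with I-CBP112, 155 with C646 and 174 in ethanol, with H2-Oa and H2-Ob listed at 0. Only 2 of its 10 genes were tested. None passed against ethanol with any treatment, and 1 was higher in I-CBP112 than in DMSO. The endothelial list, with 3 of 8 markers tested, summed to 709 in DMSO, 801 with I-CBP112, 1162 with C646 and 1187 in ethanol. Of these 3, Tek, a receptor of angiopoietins, was lower in DMSO at -1.24 ± 0.21 (SE, DESeq2 adjusted p = 1.19e-07) and in I-CBP112 at -0.86 ± 0.205 (adjusted p = 0.000773) in the authors' deposited tables, and none passed in C646, also at an unadjusted p under 0.05. The part of these shifts in cell markers in the class I values was not tested, and in bulk RNA fewer cells of a type and less RNA per cell cannot be told apart.

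In DMSO-treated cells, 6 of the 10 class I genes were lower than in ethanol-treated cells, none was higher and 4 did not pass the test. The 6 were Nlrc5, Psmb8, H2-T23, H2-D1, B2m and H2-K1, that is the transactivator, an immunoproteasome subunit and every heavy and light chain among the members. With I-CBP112 or C646 none of the 10 passed the test against ethanol. The median log2 fold change of the 10 members was -0.50 in DMSO, against 0.03 for all tested genes. It was -0.13 in I-CBP112, against 0.01 for all tested genes, and -0.01 in C646, against 0.0 for all. In DMSO 7.90% of 14830 tested genes were lower past the test, 8.07% were higher and 16.0% passed either way. In I-CBP112 5.25% were lower, 4.65% were higher and 9.90% passed either way. In C646 2 of 34250 genes passed, 0.00292% lower, 0.00292% higher and 0.00584% either way. The calls rest on a normal reference distribution. With a t distribution on 4 degrees of freedom none of the 6 passed, and 1 gene of all those tested did, so nearly every call was lost. All 10 fold changes were below 0 in DMSO, while they ranged from -0.207 (H2-T23) to 0.243 (H2-K1) in I-CBP112 and from -0.201 (Tap2) to 0.115 (Nlrc5) in C646 in the authors' deposited tables.

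**Figure D1:**
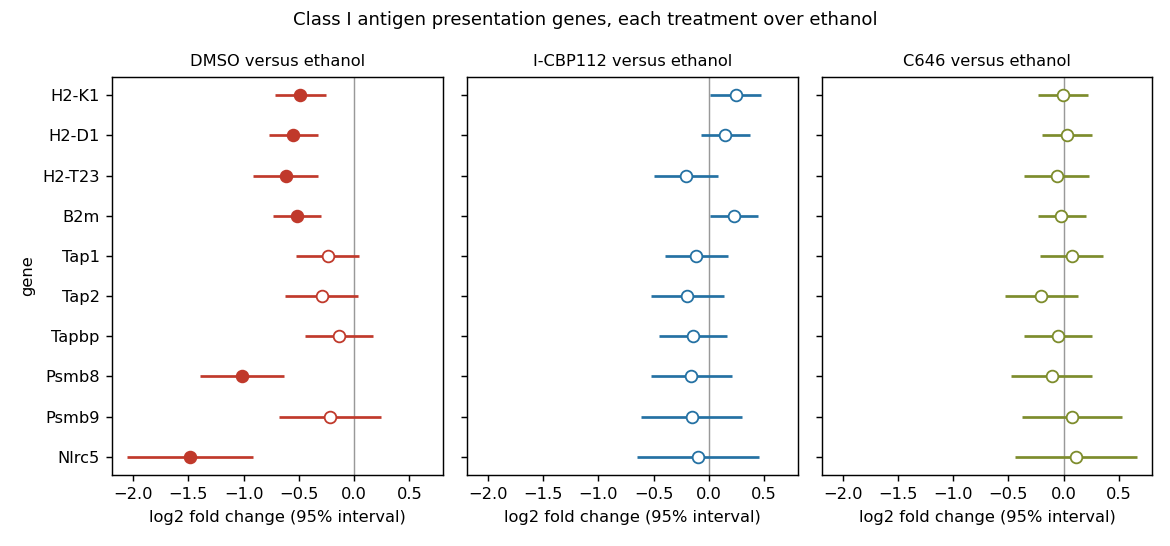
Log2 fold change of each of the 10 class I genes against ethanol in DMSO, I-CBP112 and C646, from the authors' deposited tables, with bars of 95% intervals (normal, from the deposited SE) and filled symbols where the DESeq2 adjusted p was under 0.05. All 10 values are below 0 in DMSO, where 6 are filled, and none is filled in I-CBP112 or C646.

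The classical heavy chains H2-K1 and H2-D1, which present peptides to CD8+ T cells, were among the abundant transcripts of these cells. H2-K1 had a rebuilt mean count of 10430 in DMSO, 17325 with I-CBP112, 14593 with C646 and 14643 in ethanol. H2-D1 had 12594 in DMSO, 20481 with I-CBP112, 18878 with C646 and 18474 in ethanol. For both genes DMSO had the lowest level of the 4 groups and I-CBP112 the highest. H2-K1 fell by 28.8% in DMSO, which is -0.49 ± 0.12 (SE) on the log2 scale in the authors' deposited table (DESeq2 adjusted p = 0.00053). H2-D1 fell by 31.8%, or -0.55 ± 0.11 on that scale in the authors' deposited table (DESeq2 adjusted p = 2.82e-05). In I-CBP112 the log2 fold change in the authors' deposited table was 0.24 ± 0.12 (SE) for H2-K1 (DESeq2 adjusted p = 0.218) and 0.15 ± 0.11 for H2-D1 (adjusted p = 0.559). In C646 it was -0.005 for H2-K1 and 0.03 for H2-D1 in the authors' deposited table, with a DESeq2 adjusted p of 1 for both. No pair among I-CBP112, C646 and ethanol differed past the test for either gene. H2-K1 and H2-D1 share sequence: 22.8% of the 31-base words of H2-K1 transcripts and 26.7% of those of H2-D1 also occur in transcripts of other genes, most often in each other's, so how reads were split between the heavy chains is uncertain.

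H2-T23 encodes the heavy chain of Qa-1, a nonclassical molecule that shows leader peptides of other class I chains to NK receptors. Its rebuilt mean count was 1363 in DMSO, 1815 with I-CBP112, 2005 with C646 and 2095 in ethanol. DMSO was again the lowest group, and I-CBP112 lay below ethanol here, though without passing the test. H2-T23 fell in DMSO by 0.62 in the authors' deposited table (SE 0.15, DESeq2 adjusted p = 0.00057), and the value in I-CBP112 was -0.21 ± 0.15 (SE, adjusted p = 0.517). Of its 31-base words, 24.5% occur in other genes, most often in H2-T-ps, and an antisense gene, A930015D03Rik with a mean count of 17.5, covers it on the other strand.

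B2m, the light chain that heavy chains need to leave the endoplasmic reticulum efficiently, was the most abundant member, 64th of the 14830 tested genes by mean count. It had 29753 rebuilt counts in DMSO, 49902 with I-CBP112, 42067 with C646 and 42613 in ethanol. B2m fell by 30.2% in DMSO, which is -0.52 ± 0.11 (SE) on the log2 scale in the authors' deposited table (DESeq2 adjusted p = 7.05e-05). In I-CBP112 the value in the authors' deposited table was 0.23 ± 0.11 (SE, DESeq2 adjusted p = 0.223), and in C646 it was -0.02. B2m shares no 31-base word with another gene, so its fall does not depend on how reads of related chains were split. In I-CBP112, B2m and H2-K1 were the only members of 10 under an unadjusted p of 0.05 (0.0402 for B2m and 0.0389 for H2-K1), and in C646 there was none.

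Transport and loading showed no change past the test. Tap1 and Tap2 form the transporter that moves peptides into the endoplasmic reticulum, and Tapbp encodes tapasin, which bridges the transporter and the empty heavy chain. Tap1 had a rebuilt mean count of 2304 in DMSO, 2514 with I-CBP112, 2865 with C646 and 2721 in ethanol. Tap2 had 915 in DMSO, 979.9 with I-CBP112, 976 with C646 and 1122 in ethanol. Tapbp had 3588 in DMSO, 3581 with I-CBP112, 3811 with C646 and 3952 in ethanol. The groups lay close together for all 3 genes. In DMSO the authors' deposited table gave -0.24 ± 0.15 (SE) for Tap1 (DESeq2 adjusted p = 0.301), -0.295 ± 0.17 for Tap2 (adjusted p = 0.264) and -0.14 ± 0.16 for Tapbp (adjusted p = 0.642). In I-CBP112 and C646 the authors' deposited tables gave -0.11 and 0.07 for Tap1, -0.20 and -0.20 for Tap2, and -0.14 and -0.05 for Tapbp. The 95% intervals in DMSO were -0.527 to 0.047 for Tap1, -0.627 to 0.037 for Tap2 and -0.445 to 0.167 for Tapbp, so falls as deep as those of H2-K1 or B2m lie inside the first pair of intervals. Tapbp shares 3422 bases of its span with Zbtb22 on the same strand, and Tap1 and Psmb9 overlap head to head by 212 bases on opposite strands, while use of strand in the counting is not stated.

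Psmb8 and Psmb9 encode catalytic subunits that replace the constitutive ones when interferon turns the proteasome into the immunoproteasome. Psmb8 had a rebuilt mean count of 302 in DMSO, 547 with I-CBP112, 567 with C646 and 611 in ethanol. Psmb9 had 217 in DMSO, 227 with I-CBP112, 266 with C646 and 252 in ethanol. For Psmb8 the DMSO level stood far below the other 3, which lay together, and for Psmb9 all 4 were close. Psmb8 fell in DMSO by 1.02 in the authors' deposited table (SE 0.19, DESeq2 adjusted p = 4.05e-06), which is 2.02-fold lower with a 95% interval of -1.393 to -0.639 on the log2 scale. Psmb9 had -0.22 ± 0.24 (SE) in the authors' deposited table (DESeq2 adjusted p = 0.623), with a 95% interval of -0.68 to 0.241. The difference between the changes of these genes was not tested. Psmb9 stood at -0.15 in I-CBP112 (DESeq2 adjusted p = 0.842) and 0.07 in C646 (adjusted p = 1) in the authors' deposited tables. Against ethanol Psmb8 stood at -0.16 in I-CBP112 (DESeq2 adjusted p = 0.774) and -0.11 in C646 (adjusted p = 1) in the authors' deposited tables.

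Nlrc5, the transactivator, had the deepest fall of the 10 members. Its rebuilt mean count was 140.97 in DMSO, 369 with I-CBP112, 427 with C646 and 395 in ethanol. The 3 groups other than DMSO lay close together. In the authors' deposited table Nlrc5 fell in DMSO by 1.48 (SE 0.29, DESeq2 adjusted p = 9.04e-06), a 2.80-fold lower level with a 95% interval of -2.054 to -0.916. The authors' deposited tables gave -0.10 ± 0.28 (SE) in I-CBP112 (DESeq2 adjusted p = 0.937) and 0.11 ± 0.28 in C646 (adjusted p = 1), with 95% intervals of -0.648 to 0.458 and -0.438 to 0.668. Nlrc5 transcripts share no 31-base word with another gene.

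Divided by the length of the longest coding transcript in GENCODE M21, the members spanned a wide range of levels. The mean normalized count per kb over all libraries was 47770 for B2m, 8800 for H2-K1, 8376 for H2-D1, 1288 for Tapbp, 1236 for H2-T23, 881 for Tap1, 311 for Psmb8, 290.0 for Tap2, 178 for Psmb9 and 43.95 for Nlrc5. The neighbours H2-K1 and H2-D1, Tapbp and H2-T23, and Psmb8 and Tap2 are each so close that their order rests on the transcript length used. In DMSO, Psmb8 had 185.5 counts per kb and Tap2 had 265.7, so that pair stood in the other order there. Tapbp had 1238 and H2-T23 had 926.2 in DMSO, and that pair stood in the other order in C646 (1315 for Tapbp and 1362 for H2-T23) and in ethanol (1364 for Tapbp and 1423 for H2-T23), so its order over all libraries came from the DMSO libraries.

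**Figure D2:**
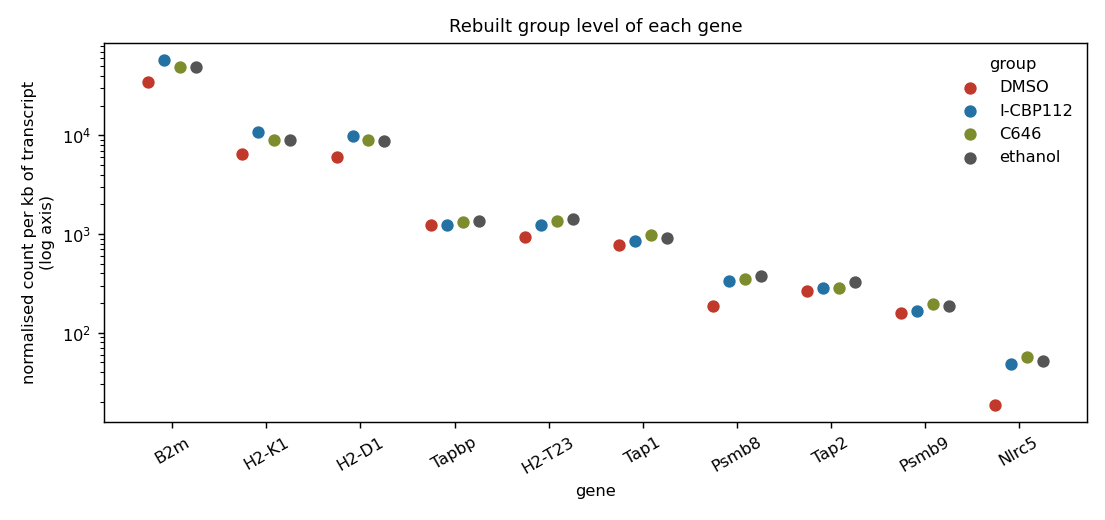
Rebuilt mean normalized count per kb of transcript for each of the 10 class I genes on a log axis, with a point for each of DMSO, I-CBP112, C646 and ethanol. The DMSO point is the lowest for 9 of the genes, for example 18.6 for Nlrc5 in DMSO against 52.07 in ethanol, and for Tapbp it lies beside the I-CBP112 point (1238 in DMSO and 1236 with I-CBP112).

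Setting the treatments against each other leaves the ethanol libraries out of the contrast. These 3 pairs were computed here from the deposited fold changes, with an SE rebuilt from each gene's dispersion and Benjamini-Hochberg adjustment over 14830 genes within each pair. Doses differ (5 µM of an inhibitor and 1% DMSO), and whether the inhibitor wells also held DMSO is not given, so a difference from DMSO is a difference between cultures as treated. In I-CBP112, 5 members were higher than in DMSO, none was lower and 5 did not pass the test, where 4.31% of all tested genes were higher, 2.66% lower and 6.97% called either way. In C646, 6 members were higher than in DMSO, none was lower and 4 did not pass, where 7.98% of all were higher, 7.86% lower and 15.8% called either way. With the t distribution none of these 5 and 6 passed, and 0 of all tested genes passed in either pair. The median log2 difference of the members was 0.56 for I-CBP112 over DMSO and 0.49 for C646 over DMSO, against -0.03 for all tested genes in both pairs. These pairs share the DMSO libraries, the same ones that gave the falls against ethanol, so they are not independent of those falls.

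For the heavy and light chains, the difference of I-CBP112 over DMSO was 0.73 ± 0.12 (SE) for H2-K1 (adjusted p = 8.17e-08, normal test with the DESeq2 dispersion rebuilt), 0.70 ± 0.11 for H2-D1 (adjusted p = 1.02e-07) and 0.75 ± 0.11 for B2m (adjusted p = 4.16e-09). H2-T23 had 0.41 ± 0.15 and did not pass (adjusted p = 0.0721 by the same test). It passed when fold changes were centred on the median gene (0.44, DESeq2-based adjusted p = 0.0466) or scaled to equal totals (0.45, adjusted p = 0.0388). C646 over DMSO gave 0.48 ± 0.12 for H2-K1 (same test, DESeq2-based adjusted p = 0.00064), 0.58 ± 0.11 for H2-D1 (adjusted p = 7.63e-06), 0.50 ± 0.11 for B2m (adjusted p = 0.000141) and 0.56 ± 0.15 for H2-T23 (adjusted p = 0.00267). With an upper bound in place of the rebuilt SE, H2-K1 and H2-T23 no longer passed for C646 over DMSO (DESeq2-based adjusted p = 0.0594 and 0.11). That bound cut the calls over all tested genes in this pair from 2349 to 839.

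Psmb8 stood 0.86 ± 0.19 (SE) higher in I-CBP112 than in DMSO (DESeq2-based adjusted p = 0.000422, and 0.0724 with the upper bound of the SE) and 0.91 ± 0.19 higher in C646 than in DMSO (adjusted p = 5.39e-05). Nlrc5 stood 1.39 ± 0.29 higher in I-CBP112 than in DMSO (DESeq2-based adjusted p = 0.000116) and 1.60 ± 0.29 higher in C646 than in DMSO (adjusted p = 1.24e-06). Tap1, Tap2, Tapbp and Psmb9 passed in neither pair, and the largest of their 8 differences was 0.31 ± 0.15 for Tap1 in C646 over DMSO (DESeq2-based adjusted p = 0.141). The genes that stood apart from DMSO were therefore the heavy and light chains, Psmb8 and Nlrc5 in C646, and these without H2-T23 in I-CBP112.

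No member passed the test between I-CBP112 and C646, where 9.80% of all tested genes did (4.69% higher and 5.11% lower), and 2 of 10 were under an unadjusted p of 0.05. These were H2-K1 at 0.25 ± 0.12 (SE, DESeq2-based adjusted p = 0.207) and B2m at 0.25 ± 0.11 (adjusted p = 0.174), both higher in I-CBP112. The interval of the difference for Nlrc5 was -0.763 to 0.343, which still holds differences of moderate size in either direction.

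**Figure D3:**
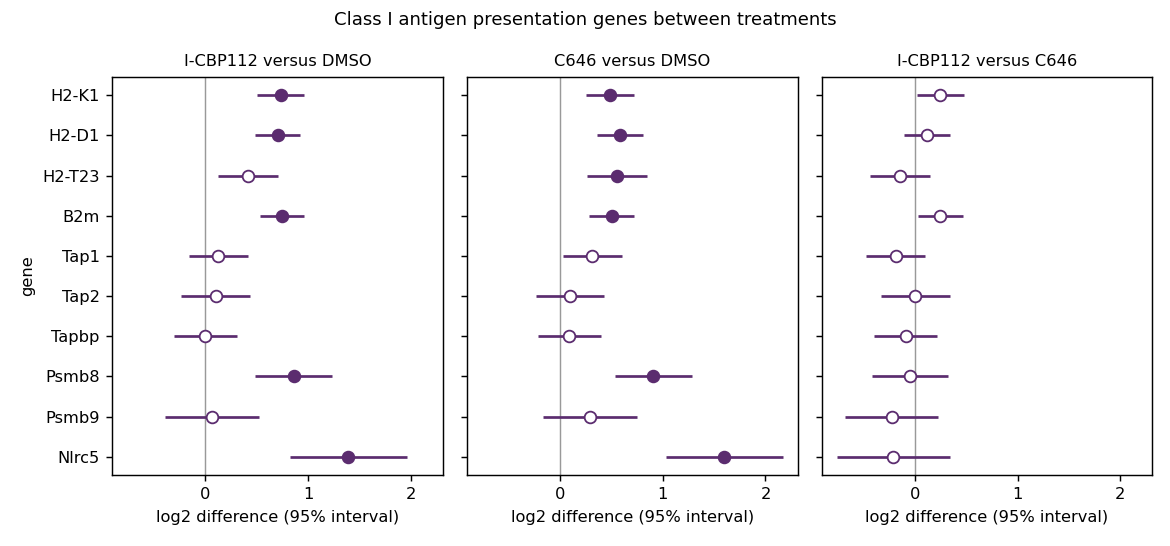
Log2 difference of each of the 10 class I genes for I-CBP112 over DMSO, C646 over DMSO and I-CBP112 over C646, with bars of 95% intervals (normal, from the rebuilt SE) and filled symbols where the adjusted p was under 0.05. Filled symbols lie above 0 for 5 genes in I-CBP112 over DMSO and for 6 in C646 over DMSO, and there is none in I-CBP112 over C646.

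Other class I heavy chains that passed the test in DMSO went in both directions. Of 27 further class I heavy chain genes, 23 were in the tables, 4 of those were listed at 0 and 9 were tested. In DMSO the authors' deposited table (DESeq2) had 3 of the 9 lower and 1 higher, with a median of -0.62. The shares of all tested genes there were 7.90% lower and 8.07% higher. The lower ones were H2-Q6 at -1.30 ± 0.31 (SE, adjusted p = 0.000589), H2-Q7 at -1.13 ± 0.40 (adjusted p = 0.031) and H2-Q4 at -0.99 ± 0.18 (adjusted p = 1.8e-06) in the authors' deposited table (DESeq2), and the higher one was H2-Q10 at 1.95 ± 0.62 (adjusted p = 0.0158). H2-T22, the most abundant of the 9 with a mean count of 3058, stood at -0.01 ± 0.135 in the authors' deposited table (DESeq2 adjusted p = 0.977). These chains are close copies of each other, so the split of reads among them is uncertain. None of the 9 passed in I-CBP112 (DESeq2, 2 under an unadjusted p of 0.05) or in C646 (none under it). I-CBP112 over DMSO gave 4 higher and none lower, where 4.31% of all tested genes were higher and 2.66% lower. C646 over DMSO gave 3 higher and 1 lower, where 7.98% of all were higher and 7.86% lower.

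Loading and trimming factors of the endoplasmic reticulum did not pass the test against ethanol. None of 12 passed in DMSO (median -0.02, 3 under an unadjusted p of 0.05), in I-CBP112 or in C646 (none under it in either) in the authors' deposited tables (DESeq2). Tapbpl, the tapasin-related peptide editor TAPBPR, had -0.43 ± 0.20 (SE) in DMSO in the authors' deposited table (DESeq2 adjusted p = 0.141). It was 0.70 ± 0.20 higher in C646 than in DMSO (DESeq2-based adjusted p = 0.00508). I-CBP112 over C646 gave -0.59 ± 0.20 for Tapbpl (adjusted p = 0.0336). Tapbpl was the only 1 of the 12 past the test in either pair, where 15.8% and 9.80% of all tested genes passed. The further inducible proteasome genes did not pass either, with 0 of 4 in DMSO (1 under an unadjusted p of 0.05) and 0 of 4 in I-CBP112 and in C646 (none under it) in the authors' deposited tables (DESeq2). Psmb10, the remaining catalytic subunit of the immunoproteasome, stood at -0.23 ± 0.21 (SE) in DMSO in the authors' deposited table (DESeq2 adjusted p = 0.537). Of 34 constitutive proteasome genes, 1 was higher in DMSO, Psmd3 at 0.45 ± 0.15 in the authors' deposited table (DESeq2 adjusted p = 0.0224), and the list's median was 0.14. Class I-like proteins coded outside the locus gave 2 of 9 tested lower in DMSO (Procr and Hfe), 1 of 9 lower in I-CBP112 (Fcgrt, the neonatal Fc receptor) and none in C646, where none was under an unadjusted p of 0.05, by DESeq2 in the authors' deposited tables. Over all tested genes 16.0% passed in DMSO (7.90% lower, 8.07% higher) and 9.90% in I-CBP112 (5.25% lower, 4.65% higher). Against those shares, 0 of 12, 0 of 4 and 1 or 2 of 9 do not set these lists apart from other genes.

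Known regulators of class I transcription did not pass the test in DMSO, where Nlrc5 did and 16.0% of all tested genes passed. Of these regulators 0 of 16 passed, with a median of -0.04 and none under an unadjusted p of 0.05 in the authors' deposited table (DESeq2). Among them Irf1, which binds interferon response elements, stood at -0.13 ± 0.19 (SE, adjusted p = 0.734) and Rfx5, a subunit of the X box complex, at -0.13 ± 0.18 (adjusted p = 0.712) in the authors' deposited table (DESeq2). In C646 none of the 16 passed, and none was under an unadjusted p of 0.05. In I-CBP112 1 of the 16 was higher than in ethanol, where 4.65% of all tested genes were higher. I-CBP112 over DMSO had 2 of the 16 higher (4.31% of all), and I-CBP112 over C646 had 1 higher (4.69% of all). None of the 16 was lower in these 3 contrasts.

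Genes upstream moved in both directions. Of 13 receptors, kinases and brakes of interferon signalling, 2 were higher and 3 lower in DMSO and 1 was higher and 2 lower in I-CBP112, by DESeq2 in the authors' deposited tables. The shares of all tested genes were 8.07% higher and 7.90% lower in DMSO, and 4.65% higher and 5.25% lower in I-CBP112. Ifngr1, the ligand-binding chain of the interferon gamma receptor, fell in DMSO by 0.69 (SE 0.12, DESeq2 adjusted p = 2.36e-07) and in I-CBP112 by 1.23 (SE 0.12, adjusted p = 1.07e-22) in the authors' deposited tables. Socs3, a feedback inhibitor of JAK kinases, fell in DMSO by 0.69 (SE 0.19, DESeq2 adjusted p = 0.00265) and in I-CBP112 by 0.75 (SE 0.19, adjusted p = 0.00118) in the authors' deposited tables. The part of these changes in the class I values was not tested. Interferon genes themselves were at the floor: 3 of 9 were listed at 0, none had an adjusted p in the DMSO or I-CBP112 table, and the highest mean count was 0.451.

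Interferon-induced genes outside the class I pathway were mostly lower in DMSO. There 16 of 20 were lower and none was higher, with a median of -0.72, in the authors' deposited table (DESeq2). Of all tested genes 7.90% were lower and 8.07% higher in DMSO. Irf7, an interferon-induced transcription factor, had a mean count of 3127 and stood at -0.94 ± 0.14 (SE, DESeq2 adjusted p = 3.7e-10) in the authors' deposited table. Zbp1, a sensor of nucleic acids, stood at -1.85 ± 0.43 in the authors' deposited table. None of the 20 passed in I-CBP112 (DESeq2, 6 under an unadjusted p of 0.05) or in C646 (none under it). I-CBP112 over DMSO had 14 of 20 higher with a median of 0.94, and C646 over DMSO had 17 of 20 higher with a median of 0.78, with none lower in either pair. The shares of all tested genes higher in these pairs were 4.31% for I-CBP112 and 7.98% for C646.

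**Figure D4:**
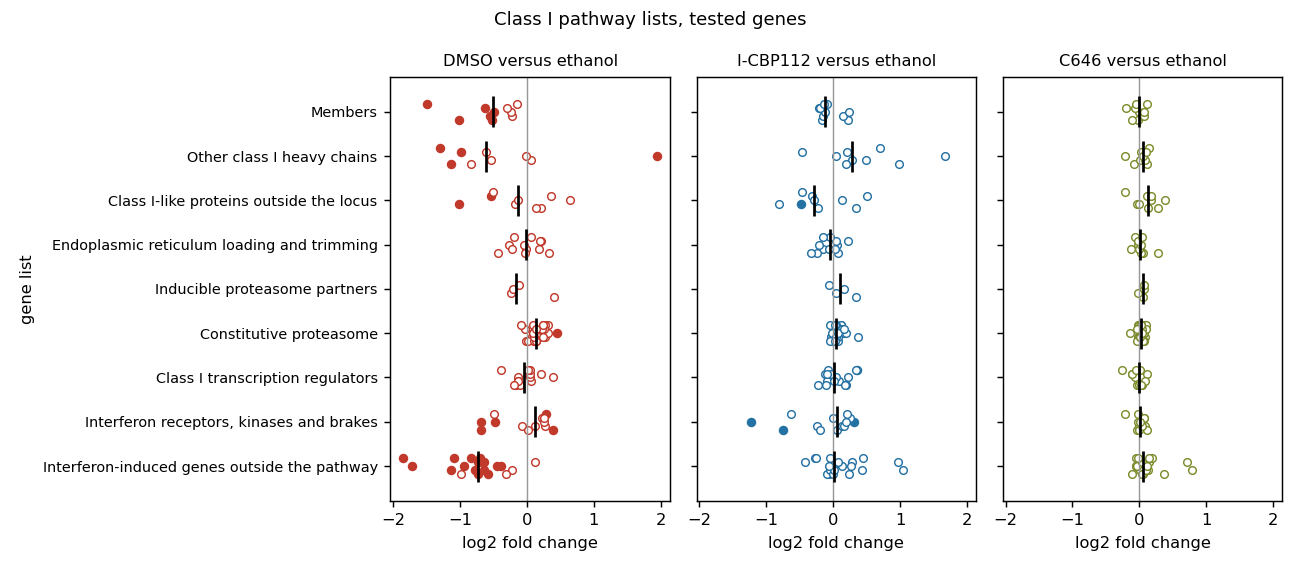
Log2 fold change against ethanol of every tested gene in the pathway and interferon lists, in DMSO, I-CBP112 and C646, from the authors' deposited tables, with points filled where the DESeq2 adjusted p was under 0.05 and a bar at the list's median. In DMSO the medians of interferon-induced genes (-0.72) and of other class I heavy chains (-0.62) lie lowest of the lists, and the constitutive proteasome lies at 0.14.

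Because 8 members share a stretch of chromosome 17, the genes between Tapbp and H2-T23 were looked at as well. That stretch holds 82 other tested genes. In DMSO 11 of them were lower and 5 were higher than in ethanol, that is 19.5% called with a median of 0.06, by DESeq2 in the authors' deposited table. Over all tested genes 16.0% were called, so the share in the stretch is near the background, and 13.4% of the 82 were lower against 7.90% of all. Of the 11 lower genes, 3 were the class I heavy chains H2-Q4, H2-Q6 and H2-Q7, and others were the complement genes C4b at -2.68 ± 0.28 (SE), C2 at -1.33 ± 0.14 and Cfb at -0.74 ± 0.18 in the authors' deposited table. The complement genes were also lower in I-CBP112, by 1.40 for C4b, 0.48 for C2 and 0.91 for Cfb on the log2 scale in the authors' deposited table. B2m and Nlrc5, which were lower in DMSO, lie on other chromosomes, and Tap1, Tap2, Psmb9 and Tapbp inside the stretch did not pass the test. Psmb8 fell past the test, and Tap1 and Tap2 on either side of it did not pass, though their intervals hold falls as deep as that of H2-K1. A shared change of the stretch was not tested.

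**Figure D5:**
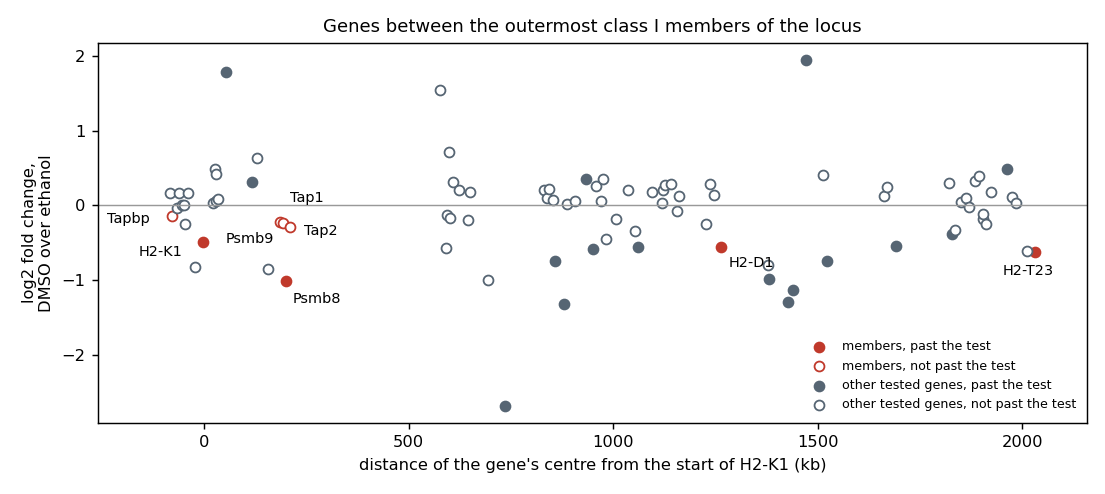
Log2 fold change of DMSO over ethanol, from the authors' deposited table, against the distance of each tested gene's centre from the start of H2-K1 in kb, for the 8 class I members on chromosome 17 and the 82 other tested genes between them. Filled points passed the DESeq2 test: 4 members and 16 other genes, spread over the stretch with genes that did not pass between them.

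Over the 3 fold changes against ethanol, the genes nearest to the members' median pattern (-0.50 in DMSO, -0.13 in I-CBP112 and -0.01 in C646) were Vat1l, 2900026A02Rik, Me3, Utrn and Elmo1, among 13298 genes with a mean count of 50 or more. Their Euclidean distance to that pattern was 0.011 for Vat1l, 0.028 for 2900026A02Rik, 0.035 for Me3, 0.039 for Utrn and 0.041 for Elmo1. The likeness is over 3 contrasts that share ethanol.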

How the data were processed

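Per the submitters' processing notes, the authors quantified reads with kallisto 0.43.1, named GRCm38.p5 as the build and used DESeq2, the version of which the sources used here do not give. The authors' deposited tables hold for each gene a signal (the mean normalized count over the 8 libraries), a log2 fold change, its SE, a Wald score, a p-value and an adjusted p-value, without values of single libraries. The signal is the same in the 3 tables, and the deposited SE agreed within 1% with one rebuilt from 1 dispersion per gene for 98.9% or more of genes. Of 2312 genes with a mean normalized count under 0.16, 598 had negative fold changes in all 3 tables, which places their reads in the shared reference, and 550 were positive in DMSO alone, 536 in I-CBP112 alone and 622 in C646 alone. The reference was therefore read as ethanol, a reading no label states.

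From the tables, group means, differences between treatments (normal test, rebuilt SE, Benjamini-Hochberg over 14830 genes) and counts per list were computed with Python 3.11.15, pandas 2.3.3 and scipy 1.17.1. The arithmetic of the differences between treatments was also run on simulated counts. That run used the true dispersions, so it could not check the normal test where dispersions are estimated from few libraries. Estimated counts per library were not used here, so edgeR could not be run. DMSO-table genes with an adjusted p had mean counts of 26.1 or more. Members and lists were chosen with earlier results of these data known. Genes named from a list are the 2 highest and 2 lowest fold changes past the test, or fewer. Irf1, Rfx5, Irf7, H2-T22, Psmb10 and the complement genes were named after their values were seen. Positions come from GENCODE M21 (50376 of 50600 identifiers matched). The values of 1 listed gene are not reported here.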

Additional observations from a re-analysis of the deposited data

How the results depend on the processing

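No paired analysis was possible because the tables hold no values per library. The fits with a replicate block and those without replicate 2 or 3 were not run for that reason, and whether 1 library decides a value cannot be seen. Counts of members past the test were 6, 0 and 0 in DMSO, I-CBP112 and C646 against ethanol, 5 in I-CBP112 over DMSO, 6 in C646 over DMSO and 0 in I-CBP112 over C646. They were the same without a filter on low counts, and for the ethanol contrasts also at a mean count of 50 or more. Centring or scaling to equal totals moved all genes by 0.04 or less on the log2 scale and changed only I-CBP112 over DMSO, to 6. The upper bound of the SE gave 4 for I-CBP112 over DMSO and 4 for C646 over DMSO. With it the calls over all tested genes went from 1034 to 237 and from 2349 to 839 in these pairs. When the normal distribution was replaced by a t with 4 degrees of freedom, the count became 0 for DMSO over ethanol, 0 for I-CBP112 over DMSO and 0 for C646 over DMSO, and 1, 0 and 0 genes of all those tested passed in these contrasts, so the calls rest on the normal distribution that the authors' test uses. Values near 0 changed sign in 4 cases: H2-K1 in C646 over ethanol to 0.004 with equal totals, Tapbp in I-CBP112 over DMSO to 0.026 when centred and 0.037 with equal totals, and Tap2 in I-CBP112 over C646 to -0.006 when centred. None of these passed the test in either form.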
